A study of Saccharomyces cerevisiae with 16 samples.

Results

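Long terminal repeats (LTRs) are the end sequences of yeast Ty retrotransposons, and most copies in the genome are solo repeats left behind after the element itself was lost. The arrays described here carried PCR products of open reading frames and of the regions between them, and an intergenic product was named after a neighbouring feature. The products of interest were those whose name begins with IY and then gives a chromosome, an arm, a strand and the name of an LTR or Ty element. There were 253 of them among 13059 named features. Delta regions, beside the LTRs of Ty1 and Ty2, made up 207 of these, tau regions (LTRs of Ty4) 22, sigma regions (Ty3) 13 and omega regions (Ty5) 10, and 1 region, IYDRCTY1-2, was named after a Ty1 element. The names came from 220 elements, since 52 regions are numbered or lettered pieces of a longer name. Membership was set by name, so no measured value chose the regions.

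All cells were haploid W303a budding yeast growing asynchronously in YEPD rich medium to an optical density of 0.25, fixed, and carrying a 13MYC tag on the protein that was precipitated. DNA Pol2-13MYC was precipitated with a MYC antibody from wild-type cells on 4 arrays (039, 086, 136 and 230) and from cells labelled rrm3 delete on 6 arrays (040, 137, 182, 183, 239 and 240). Rrm3-13MYC was precipitated from cells with no labelled deletion on 5 arrays (031, 041, 088, 184 and 185). Each array compared the precipitated DNA (IP) with input DNA, and arrays 182, 183, 184, 185, 230 and 240 were labelled as dye swaps. No array of an untagged strain was used here, so 0 on the log2 scale below means the median feature of the same array and not the absence of the protein.

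Pol2 is the catalytic subunit of DNA polymerase epsilon, which travels with the replication fork, so DNA where forks dwell can be over-represented in its IP. Rrm3 is a DNA helicase that helps forks past tightly bound proteins such as those on tRNA genes, at telomeres and in the ribosomal DNA. Ty1, Ty2, Ty3 and Ty4 insert next to genes transcribed by RNA polymerase III, mainly tRNA genes, and delta, sigma and tau repeats therefore often lie near such genes. Ty5 inserts into silent chromatin near telomeres and the silent mating loci, where the omega repeats are found. Delta repeats exist in many near-identical copies, and a product that holds part of one can hybridise with DNA from others. The sources used here do not say how much of an element each product holds.

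An array measured between 6273 and 12905 features and between 107 and 250 of the 253 regions. Arrays 136 and 182 measured fewest, since quality flags removed 49.7% and 54.0% of their spots. The direction of array 136 is unsettled: read as its label gives the dyes, its correlation with the other grouped arrays ran from -0.54 to -0.15 across features, whereas no other pair fell below -0.13. The authors' deposited table gives it the opposite sign, which was used here. The RRM3 open reading frame lay between percentiles 0.812 and 1.88 of the input signal on 4 arrays labelled rrm3 delete and at percentile 48.8 on array 239 (array 040 gave no value), against 29.0 to 91.2 in wild type, so array 239 goes against its label and the group is called "arrays labelled rrm3 delete" throughout. The text for array 086 names a histone antibody beside the MYC antibody. A feature was tested if 3 or more arrays in each group measured it, which kept 12380 features and 235 of the 253 regions: 194 delta, 12 sigma, 19 tau, 9 omega and the Ty1 region. The number of arrays limits the precision: the standard error (SE) of a region's fitted log2 ratio had a median of 0.21 in wild type, 0.17 with the rrm3 delete label and 0.18 in the Rrm3 IP.

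In wild-type cells the regions beside LTRs were poor in Pol2 relative to the rest of the genome. Their median fitted log2 ratio was -0.28, against 0.01 for all features tested and -0.02 for the 5356 other intergenic regions. On arrays labelled rrm3 delete the median of the same 235 regions was -0.07, and in the Rrm3 IP it was 0.00. The medians of all features tested were 0.00 and -0.02 in those groups. The median over regions was -0.29 on array 039, -0.29 on array 086, -0.47 on array 136 and -0.26 on array 230. It ran from -0.10 to -0.01 over the 6 arrays labelled rrm3 delete and from -0.14 to 0.09 over the 5 Rrm3 arrays. Every wild-type array therefore lay below every array of the other groups. This, and the values per array below, take array 136 in the direction of the deposited table unless stated. Read as labelled, its ratios change sign, so its median would lie above 0 and this separation would not hold. With array 136 taken as labelled the fitted wild-type median was -0.20, and without arrays 086, 136 and 239 it was -0.30.

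**Figure D1:**
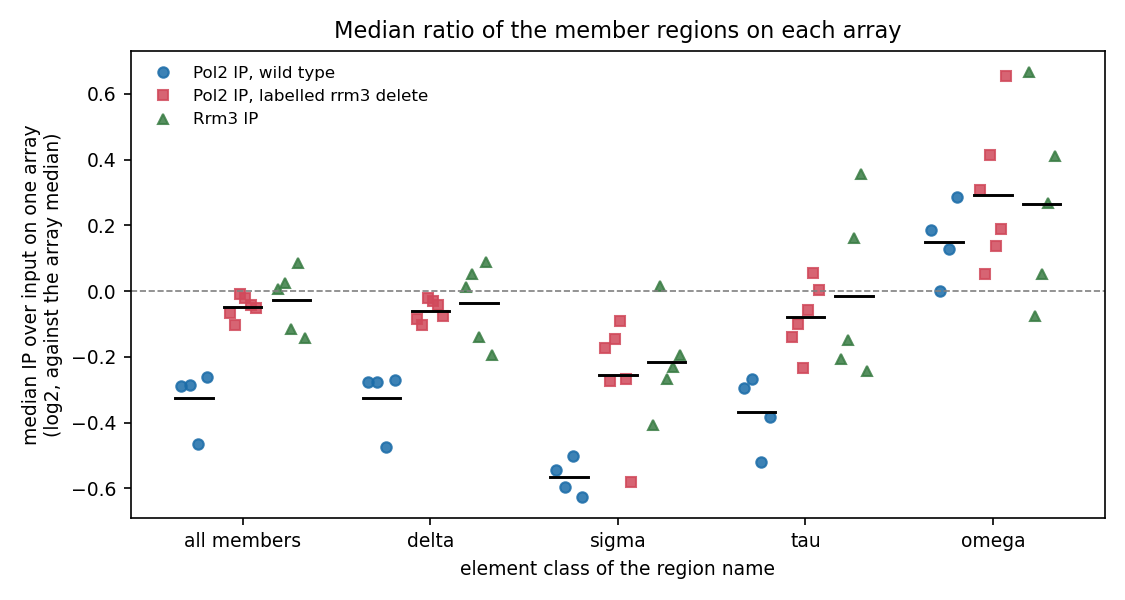
Each point is the median log2 IP over input of the member regions on 1 array, relative to the array median, for all members and for the 4 classes with more than 1 region. Colours and shapes mark the 3 groups and the black bars their means. Wild-type points for all members sit between -0.47 and -0.26, below every point of the other groups.

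The same shift was seen region by region. Of the 235 regions, 126 (53.6%) lay below 0 on every wild-type array that measured them, where 21.8% of all features did so. On arrays labelled rrm3 delete 55 regions (23.4%) were below 0 on every array, against 16.7% of all features, and in the Rrm3 IP 31 regions (13.2%), against 10.5%. The reverse pattern, above 0 on every wild-type array, held for 16 regions (6.81%), against 20.1% of all features. The LTR and Ty elements that are spotted as features of their own had lower medians again: over 160 of them the median was -0.39 in wild type, -0.25 with the rrm3 delete label and -0.15 in the Rrm3 IP. Regions named after tRNA genes (238 tested) had medians of 0.02, 0.47 and 0.23 in the same order.

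**Figure D2:**
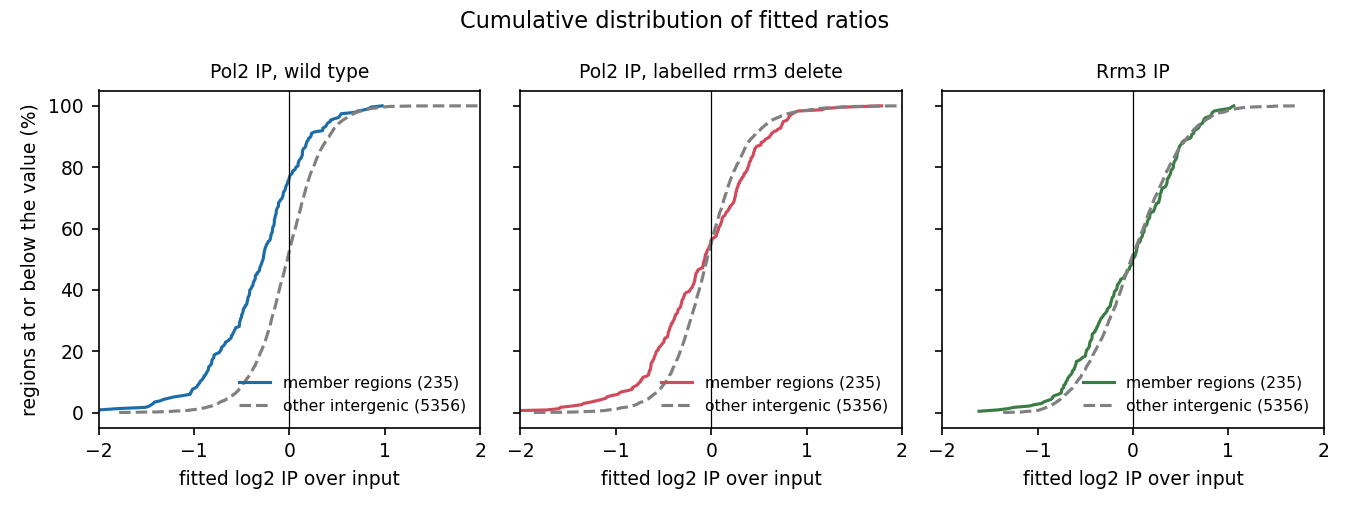
Cumulative distributions of fitted log2 IP over input for the 235 member regions (solid) and 5356 other intergenic regions (dashed) in the 3 groups; the horizontal axis is the fitted value and the vertical axis the percentage of regions at or below it. The member curve lies to the left in wild type (medians -0.28 and -0.02) and close to the other regions in the Rrm3 IP.

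The classes differed in level, and wild type had the lowest fitted median in delta, sigma, tau and omega. The order of the other groups changed with the measure. The median of the array medians with the label and in the Rrm3 IP was -0.08 and -0.15 for tau and -0.22 and -0.23 for sigma. For delta it was -0.06 and 0.01, and for omega 0.25 and 0.27. Delta regions had fitted medians of -0.27 in wild type, -0.08 on arrays labelled rrm3 delete and 0.00 in the Rrm3 IP. Sigma regions were lowest, at -0.58, -0.38 and -0.19, and their median per array lay between -0.63 and -0.50 on all 4 wild-type arrays. Tau regions lay between these, at -0.42, -0.17 and -0.02. Omega regions stood on the other side of 0, with medians of 0.13, 0.32 and 0.38, and their median was above 0 on each of the 4 wild-type and 6 rrm3 delete arrays and on 4 of 5 Rrm3 arrays. The omega value in the Rrm3 IP fell to 0.0759 when products with a failed PCR record were left out, which removes 4 of the 9 tested regions. Per array, the ranges of the class medians did not overlap between wild type and either other group for delta and tau, or between wild type and the Rrm3 IP for sigma. For tau the gap was narrow, from -0.27 in wild type to -0.24 in the Rrm3 IP. Those of sigma overlapped between wild type and the arrays labelled rrm3 delete, where array 240 reached -0.58, and those of omega overlapped throughout.

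Single regions were then tested against the array median. A region was called higher or lower where limma's moderated test gave an adjusted p below 0.05, with Benjamini-Hochberg adjustment over all 12380 features. In wild type 35 regions were called lower than the array median (background over all features 2.37%) and 1 higher (background 0.937%). On arrays labelled rrm3 delete 49 were called lower (background 6.95%) and 36 higher (background 9.39%). In the Rrm3 IP 44 were called lower (background 12.7%) and 23 higher (background 11%). The wild-type count rests on each of the arrays: it was 9, 10, 22 and 12 without array 039, 086, 136 or 230, 6 with array 136 as labelled, 58 without Rrm3 array 031, and 2 without arrays 086, 136 and 239. The count over all features moved as well, from 293 to 56, 103, 189, 95, 28, 646 and 7 in the same order. The called regions were 27 delta, 4 sigma and 4 tau regions in wild type, and none of the 9 omega regions was called lower in any group.

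IYELWDELTA5, beside a delta repeat on the left arm of chromosome V, measured -2.27, -2.12 and -1.61 on arrays 039, 086 and 230. It measured -2.06 to -1.48 on the 5 arrays labelled rrm3 delete that gave a value and -1.67 to -0.80 in the Rrm3 IP. All 13 values were below 0 and the 3 groups overlapped, with the Rrm3 IP fitted least low. The fitted values were -2.0 ± 0.20 (SE), -1.73 ± 0.15 and -1.25 ± 0.15, with adjusted p (limma) of 9.47e-05, 4.02e-06 and 0.000293. IYELCDELTA4, on the same arm, had the lowest fitted wild-type value, -2.30 ± 0.43, but it rested on 1 array: its values were -4.51 on array 039, -1.68 on array 086 and -1.0 on array 230. IYPRWDELTA14, on the right arm of chromosome XVI, measured -2.48, -1.89, -1.61 and -1.23 on the 4 wild-type arrays and -1.81 ± 0.23 in the fit. The rest of the 12 lowest called regions in wild type ran from -1.51 (IYGRWDELTA32) to -1.12 (IYLRCDELTA9), among them the tau region IYJLWTAU4 on chromosome X, at -1.35, -1.37, -1.55 and -1.52 on arrays 039, 086, 136 and 230.

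Low regions were often called in more than 1 group, as were low features in general. Of the 35 regions called lower in wild type, 28 (80.0%) were also among the 49 called lower with the rrm3 delete label (57.1% of these), and 20 (57.1%) were among the 44 of the Rrm3 IP (45.5%). Over all features, 86.4% of the wild-type lower calls were also lower with the label and 62.5% in the Rrm3 IP. The groups share no array, but they were fitted in 1 model with a common dye term. There were 18 regions called lower in all 3 groups: 16 delta regions and the tau regions IYJLWTAU4 and IYPRWTAU4. They made up 7.66% of the regions tested and 51.4% of the wild-type lower calls, against 1.32% and 55.6% over all features. IYNLCDELTA1-0 on the left arm of chromosome XIV was fitted at -1.47 ± 0.22 in wild type, -1.58 ± 0.18 with the rrm3 delete label and -1.61 ± 0.22 in the Rrm3 IP. Its single values ran from -2.10 to -0.87, from -2.17 to -0.73 and from -3.15 to -0.35, so the groups overlapped. IYKLCDELTA6 on chromosome XI followed at -1.32, -1.15 and -1.04, with all 4 wild-type arrays between -1.37 and -1.27.

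Regions called higher on arrays labelled rrm3 delete numbered 36, of which 32 were delta, 2 tau and 2 omega regions. Their fitted values with that label had a median of 0.69 (0.34 to 1.79). In wild type the same 36 had a median of 0.06 (-0.34 to 0.97), and in the Rrm3 IP 0.33 (-0.29 to 0.82). The choice of these regions by their high values fixes part of that difference, so it is a description. For 29 of the 36 every array labelled rrm3 delete lay above 0, and for 20 every such array lay above every wild-type array. A call in neither other group applied to 27 of them. Over all features 1163 were called higher with the label. Of these, 391 were also called higher in the Rrm3 IP, 100 in wild type and 72 in both. Among the 36 regions these counts were 8, 1 and 0. How many of the 1163 met the conditions array by array was not counted. Whether the regions differ in this from other features called higher was therefore not tested. The count of regions called higher with the label was 18, 21, 22 and 20 without array 040, 137, 239 or 240, and 18 without arrays 086, 136 and 239. Over all features it fell too, from 1163 to 746, 818, 808, 785 and 625 in the same order.

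**Figure D3:**
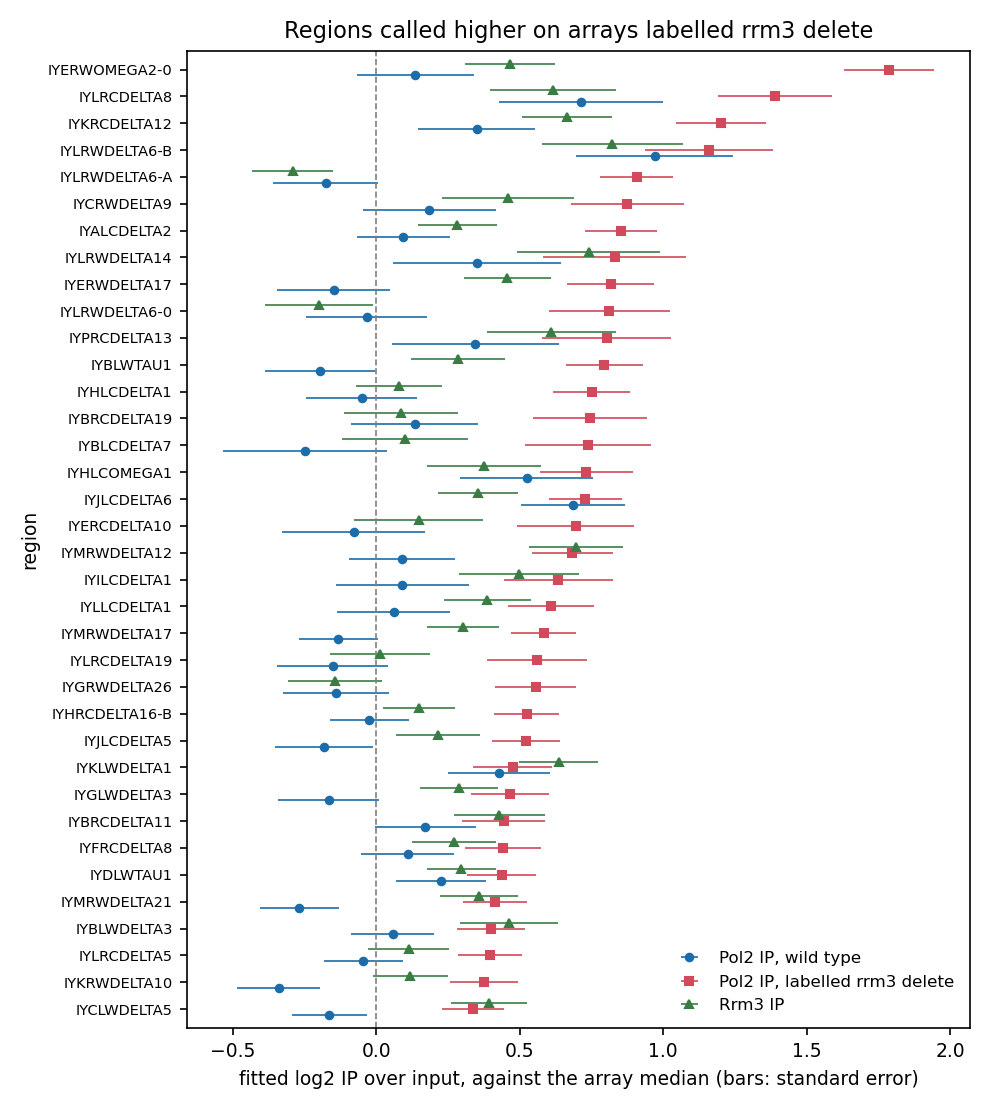
Fitted log2 IP over input (horizontal axis, bars are standard errors) of the 36 regions called higher on arrays labelled rrm3 delete, sorted by that value, with the wild-type Pol2 IP and the Rrm3 IP of the same regions. IYERWOMEGA2-0 stands at the top at 1.79; wild-type values range from -0.34 to 0.97.

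After IYERWOMEGA2-0, described below, the highest regions with the rrm3 delete label lay on chromosomes XII and XI. IYLRCDELTA8 measured 1.86, 1.07, 1.5, 2.0, 1.0 and 0.92 on arrays 040, 183, 137, 239, 240 and 182. In wild type it measured 1.08, 0.98 and 0.37 on arrays 039, 086 and 230. It was thus above 0 in both Pol2 groups, which overlapped, and its fitted value with the rrm3 delete label was 1.39 ± 0.20 (adjusted p = 0.000182, limma). IYKRCDELTA12 measured 1.41, 1.20, 1.27, 0.86 and 1.17 on arrays 040, 183, 137, 239 and 240, all above its wild-type values of 0.02, 0.29 and 0.65. Its fitted value with the label was 1.20 ± 0.16 (adjusted p = 0.000114, limma), and the difference from wild type, 0.85, had an adjusted p of 0.266. Chromosome XII held 8 of the 36 regions, out of 19 tested there (42.1%). Of the 973 features named for that chromosome, 9.76% were called higher. Chromosome II had a similar share, 5 of 11 regions (45.5%), against 8% of its features. Chromosome XI had 3 of 10 regions, and XIV and XV had 0. Over all 235 regions the share was 15.3%. The 8 regions of chromosome XII came from 6 elements, 3 of the regions being pieces named for YLRWDELTA6. Regions of chromosome XII also had the highest median difference between arrays labelled rrm3 delete and wild type of any chromosome, 0.385 on the log2 scale.

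The tau region IYBLWTAU1 on chromosome II was among the 12 highest. With the rrm3 delete label it measured 0.75, 0.72, 0.87, 0.75, 0.65 and 1.03 on arrays 040, 183, 137, 239, 240 and 182, and it measured -0.01, -0.18 and -0.41 on wild-type arrays 039, 086 and 230, so the groups did not overlap. The fitted values were 0.79 ± 0.13 and -0.19 ± 0.19, and their difference of 0.99 missed the threshold (adjusted p = 0.0839, limma). The tau repeat itself, spotted as YBLWTAU1, stayed below 0 on all 15 grouped arrays and had fitted values of -0.91 ± 0.19 in wild type and -0.39 ± 0.15 with the rrm3 delete label. IYALCDELTA2 on chromosome I was another region whose Pol2 groups did not overlap, at 0.61 to 1.03 on 5 arrays labelled rrm3 delete against -0.14 to 0.36 on 3 wild-type arrays. Its fitted values were 0.85 ± 0.12 and 0.09 ± 0.16.

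A few calls rested on 1 dye orientation. IYCRWDELTA9 on chromosome III measured 2.04 and 2.15 on the dye-swapped arrays 183 and 240 but -0.33 and -0.36 on arrays 137 and 239, which were labelled with the IP in Cy5. It carried a failed PCR record. Its wild-type values split in the same way, at 1.02 on the swapped array 230 against -0.35 and -1.23. IYPRCDELTA13 showed 1.33, 1.24 and 2.18 on swapped arrays 183, 240 and 182 against -0.27 and 0.08 on arrays 137 and 239, and its fitted value of 0.80 turned to -0.10 with forward arrays alone. For 34 of the 36 regions the means of the forward and of the swapped arrays were both above 0, with these 2 as the exceptions.

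The comparison between arrays labelled rrm3 delete and wild type addresses how Pol2 association depends on the helicase. Over the 235 regions the fitted difference had a median of 0.22, against 0.00 for all features tested and -0.02 for other intergenic regions, and 177 regions (75.3%) had a positive difference. The class medians lay close to each other, at 0.22 for delta, 0.27 for sigma, 0.21 for tau and 0.21 for omega. For 38 regions (16.2%, background 4.82%) every array labelled rrm3 delete was above every wild-type array. For 0 regions was every such array below (background 1.68%). These 38 were 30 delta, 1 sigma, 5 tau and 2 omega regions, and the number above became 30 with array 136 as labelled (4.39% of all features) and 40 without array 136 (5.40%). Without arrays 086, 136 and 239 it was 59 above and 5 below, against 9.38% and 6.17% of all features, where fewer arrays make separation easier. Regions beside tRNA genes had a median difference of 0.49 and tRNA genes one of 0.91.

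Of the 235 differences, 41 had an unadjusted p below 0.05 in limma, as had 681 of all 12380 features. After adjustment 2 regions passed the threshold as higher (background 0.557%) and 0 as lower (background 0%). The stronger was IYERWOMEGA2-0, beside an omega repeat on the right arm of chromosome V. It measured 2.19, 2.06, 1.94, 1.60 and 1.25 on arrays 040, 183, 137, 239 and 240, and 0.37, 0.24 and -0.10 on wild-type arrays 039, 086 and 230; arrays 182 and 136 gave no value. In the Rrm3 IP it measured 0.11, 0.96, 0.43, 0.37 and 0.55 on arrays 041, 031, 088, 184 and 185. The arrays labelled rrm3 delete stood clear of both other groups, which overlapped each other. The means were 1.81 ± 0.38 (SD, n = 5), 0.17 ± 0.24 (SD, n = 3) and 0.49 ± 0.31 (SD, n = 5). The fitted difference from wild type was 1.65 ± 0.25, a 3.14-fold ratio (adjusted p = 0.0102, limma). Over 30 alternative settings it ran from 1.24 to 1.77, and the call held in 26. The call was lost without array 086, without array 230 and without arrays 086, 136 and 239 (adjusted p of 0.0765, 0.113 and 0.262, limma). The difference lay between 1.56 and 1.73 in these settings. With forward arrays alone no feature was called in this comparison.

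The omega repeat that gives this region its name is a separate spot, YERWOMEGA2, and it behaved like its neighbour. It measured 1.89, 1.37, 1.76, 2.20, 1.04 and 1.45 on arrays 040, 183, 137, 239, 240 and 182, and 0.54, -0.10, -0.16 and 0.23 on the 4 wild-type arrays. The Pol2 groups did not overlap, and the fitted difference was 1.49 ± 0.28 (adjusted p = 0.0211, limma). In the Rrm3 IP it measured -1.32, -0.04, -0.50, 0.11 and -0.29 on arrays 041, 031, 088, 184 and 185, 2.04 lower on the log2 scale than with the rrm3 delete label (fitted difference -2.04 ± 0.26, adjusted p = 0.000543, limma). The second piece of the same intergenic region, IYERWOMEGA2-1, measured 0.95, 0.36, 0.62, 0.14 and 0.03 on 5 arrays labelled rrm3 delete and 0.24, -0.19 and -0.28 in wild type. The groups overlapped, and its fitted difference of 0.52 was not called.

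The second called region was IYLRWDELTA6-A on the right arm of chromosome XII. It measured 0.96, 0.97, 1.02, 1.32, 0.41 and 0.76 on arrays 040, 183, 137, 239, 240 and 182, against 0.09, 0.33 and -0.67 on wild-type arrays 039, 086 and 230 and -0.34, 0.12, 0.27, -0.36 and -0.86 on Rrm3 arrays 041, 031, 088, 184 and 185. All 6 arrays labelled rrm3 delete lay above every other array. The fitted difference from wild type was 1.08 ± 0.22 (adjusted p = 0.041, limma). That call was lost without any one of the 10 Pol2 arrays and with array 136 as labelled (adjusted p = 0.0511, limma), while the difference kept between 0.94 and 1.19 in these settings. Its neighbouring pieces were also high with the label, at 0.81 ± 0.21 for IYLRWDELTA6-0 and 1.16 ± 0.22 for IYLRWDELTA6-B. The last of these carried a failed PCR record and was already 0.97 ± 0.27 in wild type. The number of regions called higher in this comparison was 14 without Rrm3 array 031, 1 without any one of arrays 039, 136, 040, 137, 182, 183, 239 and 240, and 0 without array 086 or 230. The count over all features moved with it, from 69 to 236 without array 031 and to 7 and 8 without array 086 or 230.

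**Figure D4:**
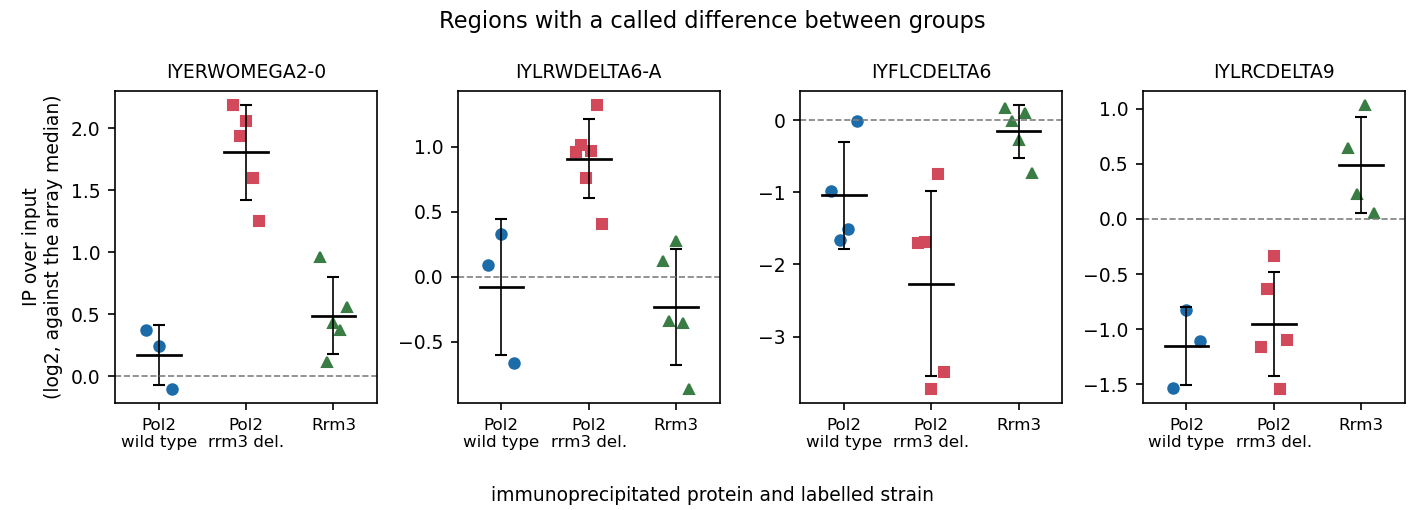
Log2 IP over input on each array for the 4 regions with a called difference between groups; horizontal bars are means and error bars SD. IYERWOMEGA2-0 and IYLRWDELTA6-A are highest on arrays labelled rrm3 delete (1.25 to 2.19 and 0.41 to 1.32), IYFLCDELTA6 is lowest there, and IYLRCDELTA9 is above 0 on Rrm3 arrays and below 0 in both Pol2 groups.

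The Rrm3 IP was compared with both Pol2 groups to see where the helicase and the polymerase differ in association. Against wild-type Pol2, with which the previous comparison shares its 4 arrays, the median difference was 0.28 over the 235 regions, against -0.01 over all features tested. The class medians were 0.28 for delta, 0.43 for sigma, 0.47 for tau and 0.17 for omega. No region was called (0 higher, background 0.00808%, and 0 lower, background 0%). An unadjusted p below 0.05 in limma was found for 45 regions and for 1351 of all 12380 features. Every Rrm3 array lay above every wild-type array for 24 regions (10.2%, background 2.71%) and below for 0 (background 2.38%). With array 136 as labelled the first number was 18, against 2.74% of all features. Without arrays 031 and 041, which carry a second layout of 18432 spots in place of 14976 and both belong to the Rrm3 group, it was 58 above and 5 below, at backgrounds of 8.70% and 7.52%.

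Within the Rrm3 IP the called regions were spread unevenly over the chromosomes. Chromosome V, with 29 regions tested, held 5 of the 23 called higher and 9 of the 44 called lower. Chromosome XII held 4 of those called higher, and I, II, IV, VI, VIII and XVI held 0. IYOLCDELTA7 had the highest fitted value among the 23 called higher, 1.03 ± 0.28 (adjusted p = 0.0187, limma). It measured 0.29, 1.3, 2.14 and 0.39 on arrays 041, 031, 184 and 185, and its values on the Pol2 arrays lay on both sides of 0. IYJLWDELTA15 on chromosome X was above 0 on all 5 Rrm3 arrays, at 0.50, 0.49, 0.69, 1.87 and 0.89 on arrays 041, 031, 088, 184 and 185, with a fitted value of 0.92 ± 0.19. It was also above 0 on all 4 wild-type arrays (0.17 to 0.90), and the groups overlapped. Both regions had their highest value on array 184, and without that array 8 regions were called higher and 29 lower. Over all features the counts also fell without it, from 1359 to 612 higher and from 1578 to 999 lower. The count of regions called higher was 15 without array 086, 040 or 183, and 13 without arrays 086, 136 and 239. Over all features it was 1147, 1148, 1195 and 833 in the same order. Of the 36 regions high with the rrm3 delete label, 8 were called higher in the Rrm3 IP too (22.2%, and 34.8% of the 23). Over all features, 33.6% of the higher calls with the label were also higher calls in the Rrm3 IP.

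Rrm3 differed from Pol2 on arrays labelled rrm3 delete at 4 regions, 2 higher (background 0.436%) and 2 lower (background 1.94%). The median difference over the 235 regions was 0.04. By class it was 0.04 for delta, 0.14 for sigma, -0.06 for tau and -0.35 for omega. Every Rrm3 array lay above every array labelled rrm3 delete for 4 regions (background 1.75%) and below for 5 (background 3.28%). The lower ones were IYERWOMEGA2-0 (-1.32 ± 0.22, adjusted p = 0.00479, limma) and IYLRWDELTA6-A (-1.20 ± 0.19, adjusted p = 0.00238), whose values are given above. IYLRCDELTA9 on chromosome XII measured 0.22, 0.64, 1.03 and 0.06 on Rrm3 arrays 041, 031, 184 and 185. With the rrm3 delete label it measured -1.16, -0.34, -0.64, -1.54 and -1.09 on arrays 040, 183, 137, 239 and 240, and in wild type -1.53, -0.83 and -1.11. Rrm3 values stood above all Pol2 values, and the fitted difference from the arrays labelled rrm3 delete was 1.42 ± 0.28 (adjusted p = 0.0163, limma). That call held in 22 of the 29 alternative settings with a value. It was lost, among others, without array 239 or 240, without arrays 031 and 041, after loess and with no flag filter. IYFLCDELTA6 on chromosome VI measured -1.70, -3.72, -1.69, -0.74 and -3.48 on arrays 040, 183, 137, 239 and 240 and -0.02, 0.17, -0.28, 0.10 and -0.73 on Rrm3 arrays 041, 031, 088, 184 and 185. The groups nearly met, at -0.74 and -0.73. The fitted difference was 2.12 ± 0.44 (adjusted p = 0.0187, limma) and was 0.84 without background subtraction, and the region's input signal was dim, at percentile 10.9. Its call, too, held in 22 of the 29 alternative settings with a value. The count of higher calls here was 1 without array 183, 0 without array 240 and 6 without array 185, and that of lower calls was 5, 4 and 4 without array 031, 088 or 185. Over all features the higher calls were 29, 19 and 176, against 54, and the lower ones 413, 333 and 415, against 240.

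The omega class was small enough to describe in full. Besides IYERWOMEGA2-0, the region IYHLCOMEGA1 on chromosome VIII was called higher with the rrm3 delete label, at 0.73 ± 0.16 (adjusted p = 0.00584, limma). Its values there were 0.64, 0.76, 0.09, -0.08, 1.93 and 1.07 on arrays 040, 183, 137, 239, 240 and 182, with the swapped arrays highest, and in wild type they were 0.50, -0.35 and 0.94. IYERWOMEGA2-0 was also called higher in the Rrm3 IP, at 0.47 ± 0.16 (adjusted p = 0.0436, limma), a call that held in 12 of 30 alternatives. The regions IYERCOMEGA1-0 and IYERCOMEGA1-1 had wild-type fits of 0.12 and 0.13 and fits of 0.25 and 0.38 with the label, and the first was called in the Rrm3 IP at 0.70 ± 0.18. It was one of the dimmest regions, at input percentile 2.08, and carried a failed PCR record. IYCLWOMEGA2-0, IYCLWOMEGA2-1, IYCRWOMEGA3 and IYGLWOMEGA1-1 had fitted values from -0.19 to 0.39 in wild type, from 0.07 to 0.32 with the label and from -0.41 to 0.55 in the Rrm3 IP, with no call. IYGLWOMEGA1-0 was not tested, since 2 arrays of each Pol2 group measured it. The Ty1 region IYDRCTY1-2 measured 0.42, -0.08 and -0.17 in wild type and -0.00 to 0.57 on 6 arrays labelled rrm3 delete, and its fitted values of 0.03, 0.27 and 0.13 were not called in any group.

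A region and the repeat it is named after could be compared for 110 regions and 96 elements, both spotted on the same arrays. Across these pairs, which share arrays and are not independent, Pearson's r of the fitted values was 0.39 in wild type, 0.54 with the rrm3 delete label and 0.28 in the Rrm3 IP (Spearman's rho 0.42, 0.51 and 0.27). Both partners were below 0 in 70 pairs in wild type and in 38 pairs in the Rrm3 IP. Taken separately, 180 of 235 regions and 128 of 160 elements were below 0 in wild type. In the Rrm3 IP 117 regions and 96 elements were, so many pairs would share this sign without a link. YERWDELTA17 was an element that moved with its region: it differed by 0.88 between arrays labelled rrm3 delete and wild type (adjusted p = 0.043, limma), and IYERWDELTA17 by 0.97, with an adjusted p of 0.128. A counterexample was IYMRWDELTA16 on chromosome XIII, called lower in all 3 groups at -1.42, -1.36 and -0.75, beside a repeat at 0.06, 0.41 and 0.70.

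Pieces of 1 intergenic region were alike in some places and unlike in others. The 6 pieces named for YHRCDELTA14 were all below 0 in every group, between -1.04 and -0.26 in wild type. The 3 pieces of YERWDELTA21, among the brightest regions at input percentiles of 99.3 to 99.7, had values between -0.61 and -0.44 in wild type, -0.66 and -0.60 with the rrm3 delete label and -0.72 and -0.47 in the Rrm3 IP. The 2 pieces of YERWOMEGA2 differed most with the label, at 0.39 and 1.79. Regions of the left arms (81) and right arms (154) had wild-type medians of -0.22 and -0.30, and those named for a repeat on the W strand (112) and the C strand (123) had medians of -0.29 and -0.27. By chromosome the wild-type median ran from -0.63 on IV (17 regions) to 0.03 on IX (8 regions).

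The ratio of a region moved with the strength of its input signal, here the percentile of the input channel on each array. Input is also the denominator of the ratio, so part of a negative relation is built into the measure. The cause of the relation was not tested. Across the 235 regions Spearman's rho between them was -0.49 in wild type, -0.34 with the rrm3 delete label and -0.61 in the Rrm3 IP, and across all features tested it was -0.31, -0.22 and -0.44. Split into 5 bins of input signal from dim to bright, the regions had wild-type medians of 0.17, -0.18, -0.28, -0.38 and -0.51, and other intergenic regions had 0.24, 0.08, -0.05, -0.13 and -0.17. The regions were lower than other intergenic regions in each bin in wild type. With the rrm3 delete label they were above the others in bin 1 (0.32 against 0.18) and below them in bins 2 to 5, with -0.45 against -0.16 in bin 5. In the Rrm3 IP the regions stood above the others in bins 1 and 3 and below them in bins 2, 4 and 5. Of the 12 regions at or above percentile 95, 11 were below 0 in wild type, and the exception was IYLRCDELTA8. Intensity-dependent centring (loess) gave member medians of -0.27, -0.10 and -0.02 in place of -0.28, -0.07 and 0.00. Of 92 calls of named regions, 83 stood after loess and 9 were lost.

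**Figure D5:**
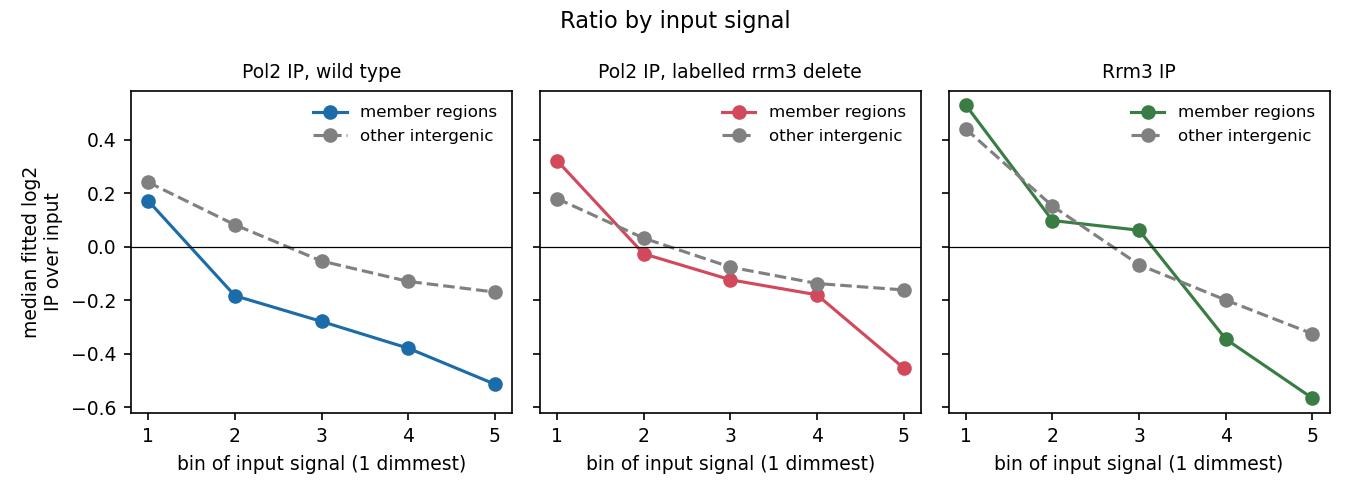
Median fitted log2 IP over input (vertical axis) of member regions (solid) and other intergenic regions (dashed) in each of 5 bins of input signal, from 1 (dimmest) to 5 (brightest), for the 3 groups. In wild type the members run from 0.17 to -0.51 and lie below the other regions in every bin.

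A record of a failed PCR product accompanied 18 of the 253 regions, 16 of them tested. Their medians were 0.16, 0.26 and 0.46 in the 3 groups, with a median input percentile of 17.3, against -0.31, -0.09 and -0.04 for the 219 others. The 18 regions without a test were 13 delta, 3 tau, 1 sigma and 1 omega region, each measured on 2 to 13 arrays. IYFLWDELTA1 on chromosome VI had the highest mean among them with the rrm3 delete label on 6 arrays, 1.31, against 0.08 on 2 wild-type arrays. IYCRCDELTA14 on chromosome III had means of -1.76, -1.55 and -0.90 on 2, 5 and 5 arrays.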

How the data were processed

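Pol2 or Rrm3 IP and input DNA were compared on 2-colour arrays of PCR products, and 15 of 16 arrays were assigned to 3 groups from their labels. Per the file headers, the deposited scanner files give median spot and local background intensities per channel, and the authors' software wrote their difference. The deposited FLAG and FAILED columns are treated as scores: quality flags and records of failed PCR. The authors also deposited log2 ratios normalized by array median, per the series' design text, which matched the scanner ratios in size (correlation of at least 0.999 on every array). Scanner, software and genome build are not named in the labels or headers.

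The log2 ratio of background-subtracted IP over input was computed for unflagged spots with both signals above 0, averaged per name and centred on the array median, with no loess. R 4.3.3 with limma 3.58.1 fitted group means and a dye term over 15 arrays. Features measured on 3 arrays or more in each group were tested, with moderated tests and Benjamini-Hochberg adjustment at 0.05. The code was tested on simulated data. The text names, per group and direction, up to 12 called regions with the most extreme fitted values, the elements they are named for, all omega and Ty regions, and some other regions chosen after their values were seen. The regions and comparison lists were chosen with earlier results of these data known. Alternatives covered background, flags, dimness, loess, dyes, single arrays and array minimum. The labels describe dye swaps as technical replicates but do not tie them to extracts, so the p-values describe array-to-array spread, part of which may be technical. Array 231, with contradictory labels, entered no comparison.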

Additional observations from a re-analysis of the deposited data

Results flagged for a closer look

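Values far from the rest of their group were looked for in 135 sets of values, and 6 were found by Dixon's criterion, where chance gives about 1 in 20. In the Rrm3 IP, IYBRWDELTA16 was 0.50 on array 041 and -0.82 or lower on the others. On arrays labelled rrm3 delete, IYERWDELTA17 was 1.17 on array 137 (next 0.80) and IYJLWTAU4 was -2.06 on array 182 (next -1.25). The wild-type median of all regions and of delta regions was -0.47 on array 136, for both (next -0.29 and -0.28), and the sigma median was -0.58 on array 240 (next -0.27).

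Between groups, the fitted difference of arrays labelled rrm3 delete from wild type passed the threshold for IYERWOMEGA2-0 (1.65) and IYLRWDELTA6-A (1.08). The difference of the Rrm3 IP from arrays labelled rrm3 delete passed it for IYERWOMEGA2-0 (-1.32), IYLRWDELTA6-A (-1.20), IYFLCDELTA6 (2.12) and IYLRCDELTA9 (1.42). On array 231, which entered no comparison, IYERWOMEGA2-0 was 0.69, above the highest wild-type value of 0.37 and below the lowest value with the rrm3 delete label, 1.25. The repeat YERWOMEGA2 was 0.32 on array 231, within its wild-type values of -0.16 to 0.54.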

How the results depend on the processing

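Of 92 calls of named regions, 63 had a value in all 30 alternatives. Wherever there was a value, 29 held (22 of them in all 30) and 91 kept their direction; the exception was IYPRCDELTA13 on arrays labelled rrm3 delete, at -0.10 with forward arrays alone. IYCRWDELTA9 had no value with forward arrays alone. The single wild-type region called higher became 0 with normexp, with no dye term, with forward arrays alone, with array 136 as labelled, with at least 2 arrays a group, and when arrays 136 and 182, or 086, 136 and 239, were left out, and 2 without arrays 031 and 041 or when dim spots were removed. Over all features that count went from 116 to 87, 75, 0, 5, 106, 57 and 0, and to 498 and 124, in the same order. Wild-type lower calls (35) were 23 with no dye term, 2 with forward arrays alone, 6 with array 136 as labelled, 22 without arrays 136 and 182, and 58 without arrays 031 and 041. They were 2 without arrays 086, 136 and 239, a setting chosen after seeing the data. Over all features the wild-type lower calls went from 293 to 218, 9, 28, 184, 719 and 7 in the same order. With forward arrays alone, calls with the rrm3 delete label were 9 higher and 22 lower, and Rrm3 calls 0 higher and 9 lower. Over all features these were 350, 247, 162 and 511, in place of 1163, 860, 1359 and 1578. Without arrays 086, 136 and 239 the regions called were 18 higher and 25 lower with the label, and 13 higher in the Rrm3 IP, which had 15 higher with no dye term. The counts over all features were 625, 409, 833 and 994.

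Differences of arrays labelled rrm3 delete from wild type called higher were 1 with no background subtraction, normexp, loess, no dye term, array 136 as labelled or arrays 136 and 182 removed. They were 0 with forward arrays alone or with arrays 086, 136 and 239 removed, and 13 without arrays 031 and 041. Over all features these 3 settings gave 0, 0 and 246 such calls, against 69. The settings with 1 region called gave 48, 38, 66, 37, 44 and 25 over all features, in the order named. Rrm3 IP against the rrm3 delete label had 1 higher with no background subtraction, normexp, no flag filter, array 136 as labelled or without arrays 086, 136 and 239. It had 0 higher with forward arrays alone, without arrays 031 and 041, or with dim spots removed. Lower calls were 0 with forward arrays alone and 4 without arrays 031 and 041. Over all features the higher calls were 44, 70, 19, 21 and 6, then 2, 111 and 72, against 54. The lower ones were 37 and 308, against 240.

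Of the medians, 17 moved. In wild type, sigma was -0.42 with no background subtraction and -0.34 with array 136 as labelled, and tau was -0.29 and -0.22 in these settings and -0.25 with forward arrays alone. With the rrm3 delete label, all regions were at -0.0288 with no background subtraction and -0.0292 with no flag filter, delta at -0.0393 and -0.0292, and sigma at -0.11 with no flag filter. In the Rrm3 IP, all regions were at -0.11 with dim spots left out, delta at -0.14 without arrays 031 and 041 and omega at 0.0759 with failed PCR products left out. The sigma difference of Rrm3 from wild type was 0.24 without arrays 031 and 041. The difference of Rrm3 from the rrm3 delete label was 0.0679 for omega with no flag filter and -0.36 for the Ty1 region after loess. The causes were not tested.

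Leaving out 1 array at a time gave 0 to 2 higher and 9 to 58 lower calls in wild type, with a sigma median of -0.63 to -0.55, 18 to 46 higher calls with the rrm3 delete label, and 8 to 33 higher and 29 to 47 lower calls in the Rrm3 IP. It gave 0 to 14 higher differences of the label from wild type, and 0 to 6 higher and 2 to 5 lower of Rrm3 from the label. Over all features the wild-type calls ran from 10 to 451 higher and from 56 to 646 lower. With the label 746 to 1821 were higher, and in the Rrm3 IP 612 to 1566 were higher and 999 to 1684 lower. The differences ran from 7 to 236 higher for the label from wild type. For Rrm3 from the label they ran from 13 to 178 higher and from 117 to 415 lower. No paired analysis was possible because the groups share no replicate number in the labels. Scan date and slide as a block were not run, since no date or slide was used here, nor were splits by distance to tRNA genes or chromosome ends.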

Other observations

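Array 231 has labels that contradict each other and was given no group. Its median over the regions was -0.43 on the log2 scale, with -0.44 for delta, -0.79 for sigma, -0.41 for tau and 0.31 for omega regions.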
